A study of Homo sapiens with 6 samples.

Results

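The splicing factor genes described here are those of the heterogeneous nuclear ribonucleoproteins (symbols starting with HNRNP) and of the SR proteins (symbols starting with SRSF), with TRA2A, TRA2B, U2AF1, U2AF2, SF3B1, KHDRBS1, SFPQ, NONO and PTBP1. They were chosen by symbol, without their pseudogenes, and came to 46 of the 26711 genes that the 3 experiments listed. All 46 were in the table of the SR2211 experiment, 1 of them, HNRNPCL3, under an older symbol and found by its identifier, and 44 each were in the tables of the XY011 and ENZ experiments. Expression was measured by poly(A) RNA-seq in C4-2B, an established human cell line of prostate cancer made from LNCaP and able to seed bone, grown mainly in charcoal-stripped serum to mimic castration. Each experiment had 1 vehicle and 1 treated library, taken after 48 h. The compounds were SR2211 at 5 µM, an inverse agonist of the nuclear receptor ROR-γ, XY011 at 5 µM, known here by its code name alone, and Enzalutamide (ENZ) at 20 µM, an androgen receptor antagonist. All results are from this 1 cell line, no genetic change was compared, and the labels do not say how many cultures went into a library.

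SR proteins bind enhancer elements in exons and help the spliceosome to define them, while many hnRNPs bind silencer elements in exons and introns and oppose them, so that the balance of both sets the use of many alternative exons. U2AF1 and U2AF2 form the dimer that recognises the end of the intron, and SF3B1 belongs to the U2 snRNP that holds the branch point. In prostate cancer several of these proteins, among them HNRNPA1, SRSF1, U2AF2, KHDRBS1 and SFPQ, have been tied to the making of androgen receptor splice variants.

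All values are levels per gene length, RPKM in the SR2211 experiment and FPKM in the others, and the 3 tables were normalised separately. A change is therefore given within an experiment, as log2((treated + 1)/(vehicle + 1)). A gene was tested where either library reached 1, and was called lower or higher at a log2 change of 1 or more, which is a 2-fold difference. With 1 library per group this rule is one of size alone and carries no p-value. Depth was recovered from the values of the SR2211 pair, at 8.20 M mapped reads for the vehicle and 8.163 M for SR2211, and was unknown for the other 4 libraries. In bulk RNA, fewer cells of a type and less RNA per cell cannot be told apart, and a level scaled to the mapped reads is a share of the RNA, not an amount per cell. The 10 luminal prostate markers were all at 1 or more in every library. Their summed level was 3081 RPKM in the vehicle and 1155 with SR2211, 3070 and 1235 FPKM in the XY011 pair, and 5122 and 3246 FPKM in the ENZ pair. No endothelial marker of 5 reached 1, 1 of 6 leukocyte markers did, and 1 to 4 of 6 fibroblast markers and 1 to 3 of 5 basal markers did, with summed levels of at most 48.93. The part of these markers in the results below was not tested.

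Many splicing factor genes were lower with both 5 µM compounds, none was higher, and none passed the size rule with ENZ. With SR2211, 12 of 42 tested members were lower, where 5.76% of all 12142 tested genes were, and 0 were higher, where 5.1% were. With XY011, 17 of 44 were lower, beside 13.2% of 12582 genes, and 0 were higher, beside 7.57%. With ENZ, 0 of 44 were lower, beside 4.67% of 19256 genes, and 0 were higher, beside 3.68%. The median log2 change of the members was -0.58, -0.63 and -0.24 with SR2211, XY011 and ENZ, where that of all tested genes was -0.07, -0.14 and -0.02. Below zero were 37 of 42, 39 of 44 and 37 of 44 members, beside 6610 of 12142, 7260 of 12582 and 10072 of 19256 genes. The untested members of the SR2211 table were SRSF12, HNRNPUL2-BSCL2, HNRNPCL1 and HNRNPCL3, each under 1 RPKM in both libraries. The members are highly expressed genes, with a median of 75.3 RPKM in the SR2211 vehicle where its table had a median of 10.96. Among genes at 20 or more in either library, a setting chosen after the data were seen, 12 of 37 members were lower with SR2211 beside 8.15% of 4440 genes, 17 of 39 with XY011 beside 14.3% of 4386, and 0 of 41 with ENZ beside 3.11% of 7695. At 1.5-fold, 21 of 42 members were lower with SR2211 beside 17.2% of all genes, and 24 of 44 with XY011 beside 27.8%. The median gene of the XY011 pair was itself below zero, and with each pair centred on its median gene 15 of 44 members were lower with XY011 beside 9.62% of genes, and 0 were higher beside 10.1%.

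**Figure D1:**
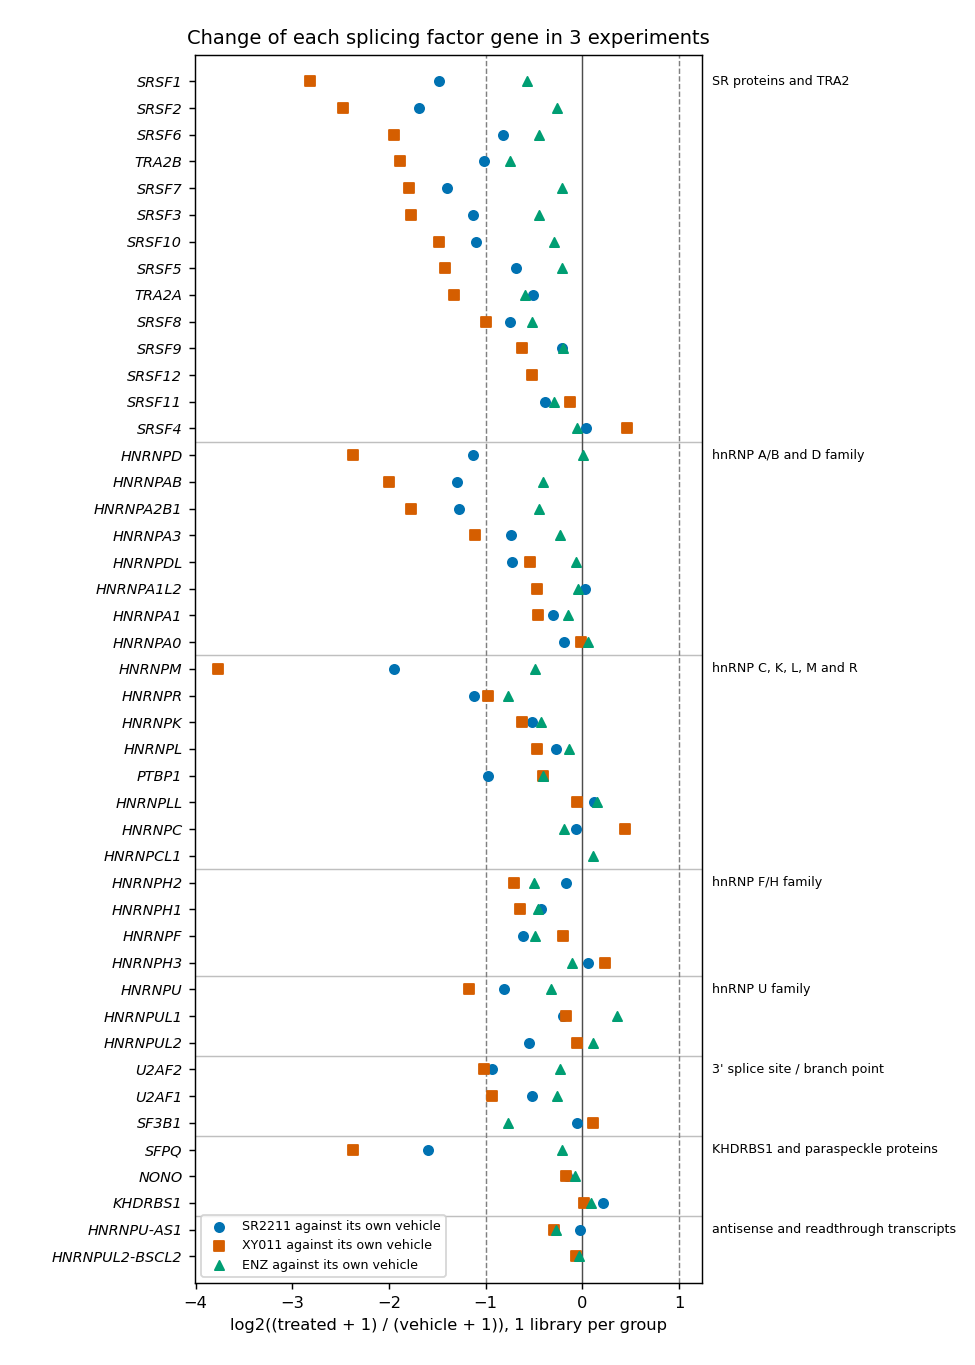
Log2 change of every tested splicing factor gene against the vehicle of its own experiment, by role, with 1 library per group; dashed lines mark the 2-fold rule. The 17 squares at or beyond -1 (XY011) and the 12 circles (SR2211) lie among SR proteins, the hnRNP A/B and D family, HNRNPM, HNRNPR, HNRNPU, U2AF2 and SFPQ, and no triangle (ENZ) reaches either line.

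The rule was passed with both compounds by 11 members: HNRNPM, SRSF2, SFPQ, SRSF1, SRSF7, HNRNPAB, HNRNPA2B1, HNRNPD, SRSF3, SRSF10 and TRA2B. Over all 11622 genes tested with both, 4.59% did. The promoters of 3 of them, HNRNPM, SRSF1 and HNRNPD, are shown as examples. Being low in both experiments does not set these 3 apart, since it holds for all 11. That of NONO, a member at nearly the same level in each pair, stands beside them. They are the 250 bases before the RefSeq start of each gene on its own strand, in build GRCh38.p14, with CACGTG (the E-box) and TGACG or its complement CGTCA (the CRE half-site) in capitals. They lie at chr19:8444725-8444974 on the plus strand for HNRNPM, chr17:58007247-58007496 on the minus strand for SRSF1, chr4:82373992-82374241 on the minus strand for HNRNPD and chrX:71283385-71283634 on the plus strand for NONO.
HNRNPM: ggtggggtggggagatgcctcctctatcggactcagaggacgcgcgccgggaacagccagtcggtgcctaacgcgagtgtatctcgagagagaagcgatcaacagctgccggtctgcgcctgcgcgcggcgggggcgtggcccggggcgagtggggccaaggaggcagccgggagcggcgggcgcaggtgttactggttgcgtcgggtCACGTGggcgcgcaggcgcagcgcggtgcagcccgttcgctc
SRSF1: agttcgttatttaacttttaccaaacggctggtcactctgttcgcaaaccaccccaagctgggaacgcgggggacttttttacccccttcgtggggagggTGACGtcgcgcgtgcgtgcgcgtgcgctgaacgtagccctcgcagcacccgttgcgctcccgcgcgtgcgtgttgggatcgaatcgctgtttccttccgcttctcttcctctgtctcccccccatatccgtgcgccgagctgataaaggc
HNRNPD: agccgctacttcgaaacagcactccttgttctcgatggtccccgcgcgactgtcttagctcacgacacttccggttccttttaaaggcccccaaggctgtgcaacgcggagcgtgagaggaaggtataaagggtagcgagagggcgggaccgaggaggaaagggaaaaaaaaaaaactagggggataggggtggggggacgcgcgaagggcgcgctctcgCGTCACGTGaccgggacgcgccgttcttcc
NONO: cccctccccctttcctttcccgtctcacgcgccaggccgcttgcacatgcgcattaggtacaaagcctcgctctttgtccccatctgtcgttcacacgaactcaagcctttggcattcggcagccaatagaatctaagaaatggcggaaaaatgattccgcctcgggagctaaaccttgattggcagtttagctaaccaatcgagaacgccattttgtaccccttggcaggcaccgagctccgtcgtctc
HNRNPM and HNRNPD held the E-box, SRSF1 and HNRNPD the CRE half-site, and NONO neither. In HNRNPD the half-site overlapped the E-box. Other members showed the reverse: SRSF7 and SRSF10, also lower with both compounds, held neither motif. Among the members with the smallest summed changes, KHDRBS1 held the E-box, and HNRNPA0 and HNRNPLL held the CRE half-site. The printed promoters therefore cannot show whether either motif goes with a lower level, and the counts over all members with a promoter are given next.

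RefSeq promoters were found for 40 members, among them 9 of the 11 lower with both compounds and 28 of the others tested with both. All 7 motifs were searched on both strands of each window and were chosen with the changes of these genes known. The CRE half-site TGACG, bound by factors of the CREB and ATF family, was in 6 of the 9 (HNRNPA2B1, HNRNPAB, HNRNPD, SRSF1, SRSF3 and TRA2B), in 8 of the 28 and in 21.7% of all 27305 promoters. The E-box CACGTG, bound by MYC among others, was in 2 of 9, in 6 of 28 and in 6.49% of all. TATAAA was in 3 of 9 (HNRNPAB, HNRNPD and SRSF3), in 2 of 28 (HNRNPC and SRSF11) and in 11.1% of all. CCAAT was in 3 of 9, in 14 of 28 and in 33.0% of all, and the ETS core CCGGAA in 1 of 9, in 8 of 28 and in 14.8% of all. The nuclear receptor half-site AGGTCA was in 0 of 9, in 1 of 28 (SRSF8) and in 12.1% of all, and the NRF1 core in 0 of 9, in 1 of 28 (KHDRBS1) and in 1.13% of all. The median GC content was 61.2% in the 9, 66.0% in the 28 and 58.0% in all. These are letters in a short window and no measure of binding.

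Among the SR proteins and TRA2 genes, 6 of 13 tested members were lower with SR2211 and 9 of 14 with XY011, with medians of -0.82 and -1.45. SRSF1, which binds purine-rich exonic enhancers, was at 91.9 RPKM in the vehicle and 32.2 with SR2211, at 61.3 and 7.87 FPKM in the XY011 pair, and at 248 and 166 FPKM in the ENZ pair. Its log2 changes were -1.49, -2.81 and -0.57. SRSF2, also known as SC35, was at 93.4 and 28.2 RPKM, 129 and 22.3 FPKM, and 232 and 193 FPKM in the same order, with changes of -1.69, -2.48 and -0.26. Both were below their vehicle in every treated library, and farthest with XY011. SRSF7 was at 42.8 and 15.7 RPKM, 37.1 and 9.97 FPKM, and 76.4 and 65.8 FPKM, changes of -1.40, -1.80 and -0.21. SRSF3, the smallest SR protein and one that links splicing to mRNA export, was at 86.5 and 39.1 RPKM, 101 and 28.9 FPKM, and 117 and 85.2 FPKM, changes of -1.13, -1.77 and -0.45. SRSF10, which acts as a general repressor of splicing when dephosphorylated, was at 37.9 and 17.2 RPKM, 40.5 and 13.9 FPKM, and 22.0 and 17.8 FPKM, changes of -1.10, -1.48 and -0.29. These 3 passed the rule with both 5 µM compounds, and their ENZ libraries were within 2-fold of the vehicle.

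TRA2B, an SR-like protein that binds GAA-rich exonic enhancers, was at 51.4 and 24.96 RPKM with SR2211, 51.8 and 13.3 FPKM with XY011, and 326 and 194 FPKM with ENZ. Its changes were -1.01, -1.88 and -0.75, so that it sat at the edge of the rule with SR2211 and had 1 of the 3 lowest changes of any member with ENZ. Its relative TRA2A was at 43.2 and 29.96 RPKM, 36.4 and 13.9 FPKM, and 51.4 and 33.8 FPKM, changes of -0.51, -1.33 and -0.59. SRSF6 was at 63.3 and 35.5 RPKM, 57.0 and 14.01 FPKM, and 66.5 and 48.7 FPKM, changes of -0.82, -1.95 and -0.44. SRSF5 was at 53.3 and 32.7 RPKM, 58.2 and 21.1 FPKM, and 171 and 147 FPKM, changes of -0.69, -1.42 and -0.21. TRA2A, SRSF6 and SRSF5 passed the rule with XY011 and not with SR2211. SRSF8 came close to it with XY011, at -0.99, and its ENZ value is the sum of 2 lines of that table. SRSF9, the SR protein with the highest level in the ENZ vehicle, was at 59.96 and 51.9 RPKM, 102 and 65.9 FPKM, and 353 and 308 FPKM, with changes between -0.63 and -0.20. SRSF11 lay between -0.38 and -0.12. SRSF4 was the one SR protein above its vehicle in both 5 µM experiments, with changes of 0.04 and 0.46, and was at -0.06 with ENZ.

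HNRNPM, which binds GU-rich sequence and regulates splicing in epithelial and mesenchymal cell states, was the member with the largest change in both experiments. It was at 151 RPKM in the vehicle and 38.4 with SR2211, at 86.5 and 5.42 FPKM in the XY011 pair and at 327 and 232 FPKM in the ENZ pair. The changes were -1.95, -3.77 and -0.49, and the plain ratio of vehicle to treated level was 3.94 with SR2211 and 15.95 with XY011. Of the 7 tested genes for hnRNP C, K, L, M and R proteins and PTBP1, 2 were lower with SR2211 and 1 with XY011. The other one was HNRNPR, at 77.1 and 35.0 RPKM, 64.7 and 32.4 FPKM, and 81.8 and 47.7 FPKM. Its changes were -1.12, -0.98 and -0.77, so that it passed the rule with SR2211 and came just short of it with XY011. PTBP1, which binds polypyrimidine tracts and represses exons, lay just outside the rule with SR2211, at 200.1 and 101 RPKM and a change of -0.98, and was at -0.41 with XY011 and -0.41 with ENZ. HNRNPK, a poly(C)-binding protein with the highest vehicle level of this group in both 5 µM experiments, was at 309 and 215 RPKM, 339 and 219.6 FPKM, and 239 and 177 FPKM, changes of -0.52, -0.62 and -0.43. HNRNPL lay between -0.47 and -0.14. HNRNPC, which binds U-rich tracts, was at 200.5 and 192 RPKM, 222 and 301 FPKM, and 329 and 289 FPKM, so that it was above its vehicle with XY011 (0.44) and slightly below it with SR2211 (-0.06) and ENZ (-0.19). HNRNPCL1, a copy of HNRNPC, reached 1 in the ENZ table alone and may share its reads.

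In the hnRNP A/B and D family, 3 of 8 members were lower with SR2211 and 4 of 8 with XY011. HNRNPA2B1, a core protein of hnRNP particles, was at 254 and 104 RPKM, 189 and 54.7 FPKM, and 537 and 393 FPKM, changes of -1.27, -1.77 and -0.45. HNRNPAB was at 127 and 51.3 RPKM, 129 and 31.4 FPKM, and 117 and 87.9 FPKM, changes of -1.30, -1.997 and -0.41. HNRNPD, or AUF1, which binds AU-rich elements and sets mRNA decay, was at 139 and 63.0 RPKM, 121 and 22.6 FPKM, and 274 and 275 FPKM, changes of -1.13, -2.38 and 0.01. Thus HNRNPD was 5.37 times higher in vehicle than with XY011 and at the same level in both ENZ libraries. HNRNPA3 was at 68.3 and 40.6 RPKM, 55.7 and 25.4 FPKM, and 69.4 and 59.1 FPKM, changes of -0.74, -1.10 and -0.23. HNRNPA1, the best known member of the family, did not reach the rule in any experiment, at 166 and 134 RPKM, 626.6 and 456.0 FPKM, and 582 and 526 FPKM, with changes of -0.30, -0.46 and -0.14. HNRNPA1 has many near-identical copies: the ENZ table listed 56 pseudogene rows of it, with a sum of 961 FPKM in the vehicle and 857 with ENZ, against 4 and 3 pseudogene rows of any member in the other tables. Its levels and those of HNRNPA1L2 are uncertain for that reason. HNRNPA1L2 was at 1.65 RPKM, 2.33 FPKM and 61.6 FPKM in the 3 vehicles.

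The hnRNP F/H family, whose proteins bind G-runs, had no member past the rule in any experiment, of 4 tested in each. HNRNPF was at 203 and 132 RPKM, 216 and 188 FPKM, and 258 and 183 FPKM, changes of -0.62, -0.20 and -0.49. HNRNPH1 was at 150.2 and 111 RPKM, 111 and 70.8 FPKM, and 704 and 511 FPKM, changes of -0.43, -0.64 and -0.46. HNRNPH3 was near its vehicle in each pair, between -0.11 and 0.23. Within the U family, HNRNPU, a scaffold-attachment protein of the nucleus, was at 122.6 and 69.6 RPKM, 80.9 and 35.4 FPKM, and 144 and 115 FPKM, changes of -0.81, -1.17 and -0.33. It passed the rule with XY011, and HNRNPUL1 and HNRNPUL2 did not in any experiment. HNRNPU-AS1, antisense to HNRNPU, lay between -0.29 and -0.03, and the strand setting of the counting is not given in the sources used here. Reads of both genes may therefore be mixed.

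Of the proteins that recognise the end of the intron, U2AF2, which binds the polypyrimidine tract, was at 120.1 and 62.3 RPKM, 109 and 53.5 FPKM, and 233 and 199 FPKM, changes of -0.93, -1.01 and -0.23. U2AF1, which reads the terminal AG, was close behind, with changes of -0.52, -0.93 and -0.26. SF3B1, in contrast, was at 73.5 and 70.6 RPKM and at 74.5 and 80.3 FPKM with the 5 µM compounds, changes of -0.06 and 0.11, and at 327 and 191 FPKM with ENZ, a change of -0.77 and the lowest of all members in that experiment. SFPQ, a paraspeckle protein that also acts in transcription and splicing, was at 146 and 47.6 RPKM, 98.6 and 18.2 FPKM, and 118 and 102 FPKM, changes of -1.59, -2.37 and -0.21. NONO, its dimer partner, was at 201 and 180.3 RPKM, 235 and 209 FPKM, and 535 and 507 FPKM, changes of -0.16, -0.17 and -0.08. SFPQ thus passed the rule in both 5 µM experiments and its partner in neither. The smallest summed changes over the 3 experiments belonged to HNRNPA0, KHDRBS1 and HNRNPLL. HNRNPA0 was at 58.4 and 51.0 RPKM, 46.7 and 46.2 FPKM, and 83.3 and 86.6 FPKM. KHDRBS1, or Sam68, a STAR-family RNA-binding protein, was at 86.5 and 100.4 RPKM, 82.9 and 84.1 FPKM, and 81.8 and 87.3 FPKM, above its vehicle in all 3 pairs. HNRNPLL, known for the splicing of CD45 in lymphocytes, was at 10.3 and 11.4 RPKM, 5.96 and 5.69 FPKM, and 21.3 and 23.7 FPKM.

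**Figure D2:**
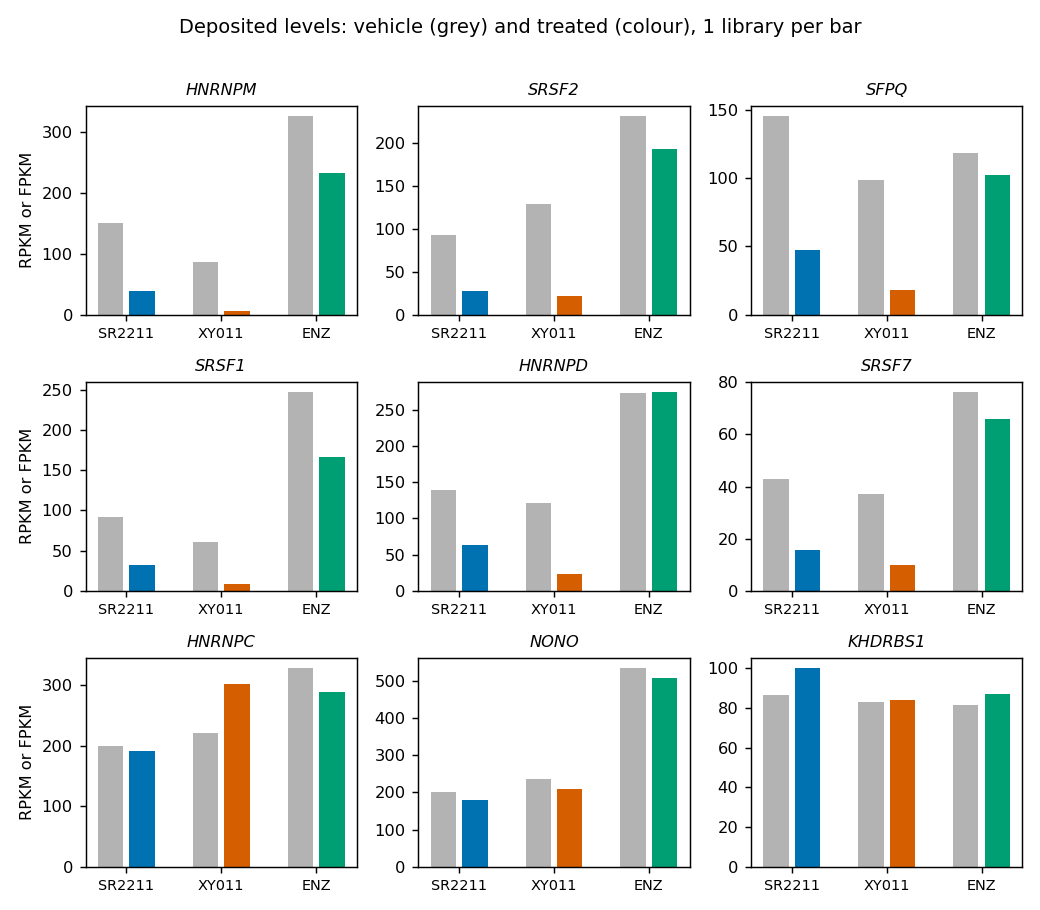
Deposited levels of 9 splicing factor genes in each of the 6 libraries (RPKM for the SR2211 pair, FPKM for the others; linear axes from 0; 1 library per bar). HNRNPM, SRSF2, SFPQ, SRSF1, HNRNPD and SRSF7 show short coloured bars beside grey vehicle bars for SR2211 and XY011, and the bars of NONO and KHDRBS1 are of near equal height in each pair.

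The read numbers behind the SR2211 pair allow the counting error of each ratio to be given, as exact 95% intervals that cover neither culture nor library differences. The smallest whole read numbers were used, so the true numbers may be a multiple of them and the interval then too wide. HNRNPM had at least 1053 reads in the vehicle and 266 with SR2211, a ratio of 0.254 (0.221 to 0.291). SRSF2 had a ratio of 0.302 (0.277 to 0.329), SFPQ one of 0.327 (0.306 to 0.349) and SRSF1 one of 0.350 (0.322 to 0.381). On the smallest read numbers, the whole interval lay beyond 2-fold for 9 of the 12 members past the rule. Those of HNRNPR (0.382 to 0.538), SRSF10 (0.403 to 0.508) and TRA2B (0.432 to 0.545) reached across it. The numbers of HNRNPR, at least 436 and 197, imply a length of only 690 bases. Its interval may therefore be too wide, and whether it reaches across 2-fold is not settled. The interval of PTBP1, just outside the rule, was 0.409 to 0.623, on at least 274 and 138 reads. Those numbers imply a length of 167 bases, short for an mRNA, so the true numbers are likely larger and this interval too wide. Of 43 members with reads, SRSF12 included, 32 had an interval wholly below a ratio of 1 and 10 had one that included 1. KHDRBS1 alone had one wholly above it, 1.16 (1.09 to 1.23). Intervals were computed for the members alone, so these counts have no share over all genes beside them. They also depend on the level, since a highly expressed gene has more reads and a narrower interval. Among the 10 was SRSF9 (0.729 to 1.03), whose smallest numbers imply a length of only 602 bases, so that its interval may also be too wide. SRSF12, with 13 and 18 reads, and HNRNPH2, with 33 and 27, could not be told from no change at this depth.

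**Figure D3:**
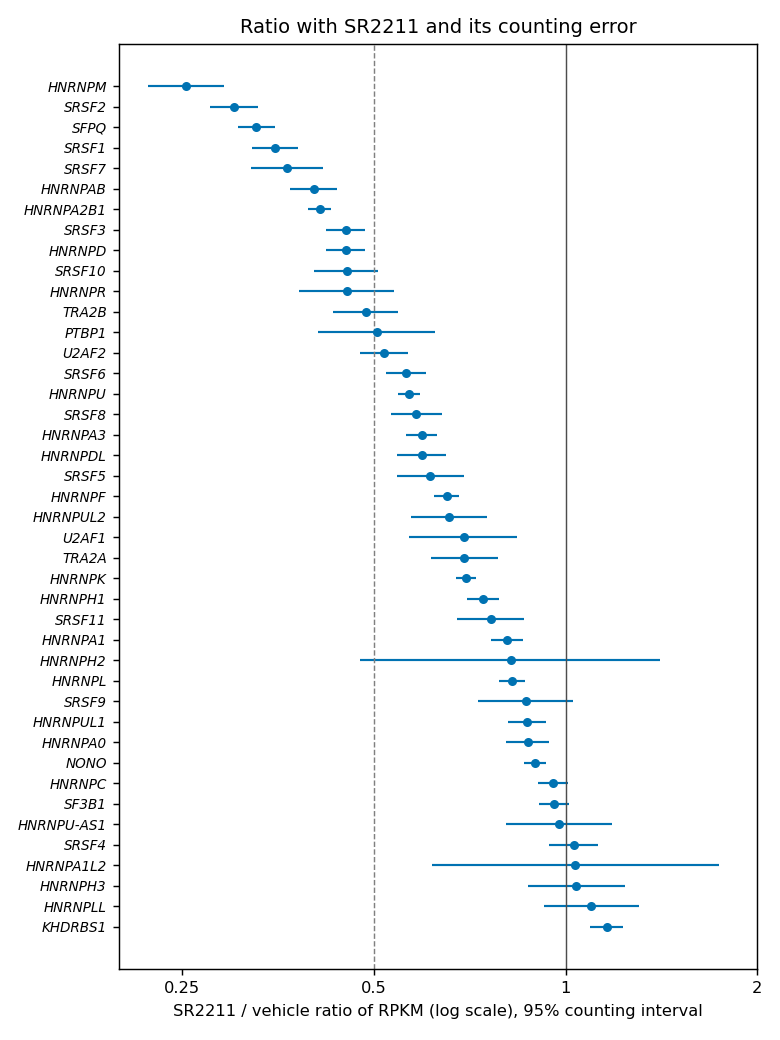
Ratio of the SR2211 to the vehicle level of each tested splicing factor gene (log axis), with exact 95% intervals as bars. They rest on the smallest matching read numbers, cover counting error only and may be too wide. Intervals of HNRNPM, SRSF2, SFPQ and SRSF1 lie wholly below 0.5 (dashed), and that of KHDRBS1 at the bottom lies wholly above 1.

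SR2211 and XY011 had equal doses and times but separate experiments with vehicles of their own, and the changes with XY011 were mostly the larger. The absolute change was larger with XY011 in 32 of 42 members, 76.2%, where it was in 65.1% of all 11622 genes. Of 18 members lower with either compound, 17 were lower by more with XY011, HNRNPR being the exception. The rule itself fixed this for the 6 that passed it with XY011 alone and for HNRNPR, which passed it with SR2211 alone. Each of the 11 lower with both was lower by more with XY011. Over all genes 1409 of the 1651 lower with either compound were lower by more with XY011. Of those 1651, 977 passed the rule with XY011 alone and 141 with SR2211 alone. The widest gaps were those of HNRNPM (-1.82 on the log2 scale), SRSF1 (-1.33), HNRNPD (-1.24) and SRSF6 (-1.13), and PTBP1 had the widest gap the other way (0.57). With 1 library per group in each experiment, no test of a gap between the compounds could be made. Of the 12 members lower with SR2211, 91.7% were lower with XY011, and of the 17 lower with XY011, 64.7% were lower with SR2211. Over all genes these shares were 79.1% of 674 and 35.3% of 1510. Across the 42 members the changes with both compounds correlated with Pearson's r of 0.895 and Spearman's rho of 0.874, given as a description over genes that share the same 4 libraries. Over all 11622 genes these were 0.793 and 0.764.

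**Figure D4:**
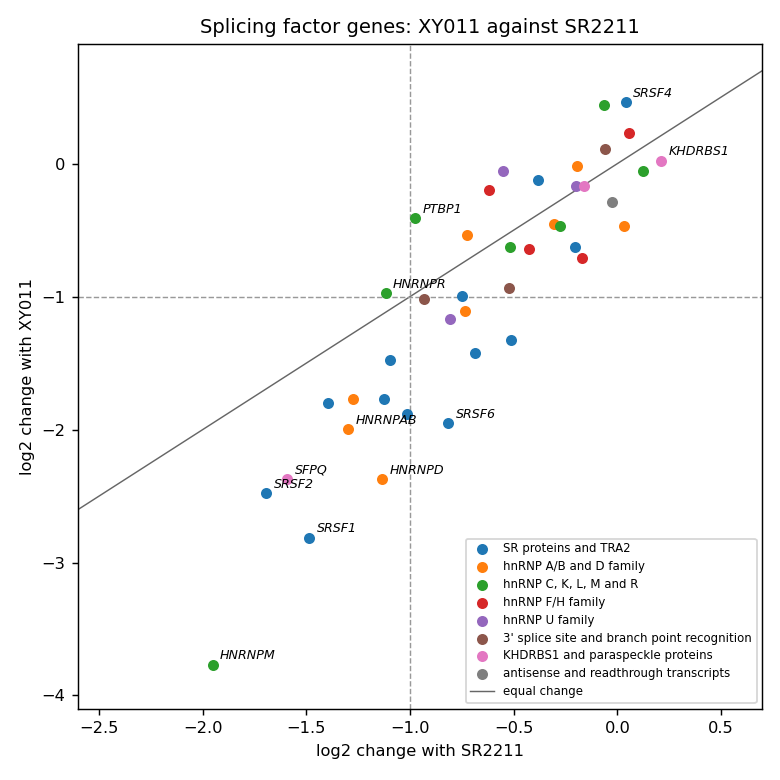
Log2 change with XY011 against that with SR2211 for the 42 splicing factor genes tested with both, coloured by role, with 1 library per group; the solid line marks equal change and dashed lines the 2-fold rule. HNRNPM lies farthest down at -1.95 and -3.77, most genes lie below the line of equal change, and HNRNPR and PTBP1 lie above it.

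A change shared by both compounds was also fitted with limma, over 11936 genes in all 6 libraries, treating SR2211 and XY011 as replicates of a class. Its error is the spread between the 2 compounds in 2 experiments, on 1 residual degree of freedom and a prior borrowed across genes. By this fit 19 of 43 members fell and 0 rose at an adjusted p under 0.05, where 13.6% of all genes fell and 9.33% rose. With unadjusted limma p-values under 0.05, 24 fell and 0 rose, where 23.8% of all genes fell and the share that rose was not counted. This call rested on the pseudocount: with 0.1 in place of 1, limma called 0 of 43 members and 0.0% of all genes as fallen. The limma adjusted p of the same 19 members then lay between 0.0666 and 0.123. At an unadjusted limma p under 0.05, 23 members fell with that pseudocount, beside 20.3% of all genes. With the pseudocount of 1, 10 of 13 SR proteins and TRA2 genes fell, 4 of 8 of the A/B and D family, 2 of 7 of the C, K, L, M and R group and 1 of 3 each of the U family (HNRNPU), the splice site group (U2AF2) and the KHDRBS1 and paraspeckle group (SFPQ). SRSF2 had a shared log2 change of -2.09 (SE 0.25, limma adjusted p = 0.00673), SFPQ one of -1.98 (SE 0.25, limma adjusted p = 0.00765) and HNRNPM one of -2.86 (SE 0.41, limma adjusted p = 0.00981). The larger SE of HNRNPM goes with the gap between its 2 compounds. SRSF8, short of the size rule in each experiment, fell by 0.87 (SE 0.20, limma adjusted p = 0.0284). PTBP1 had a change of -0.69 with a limma adjusted p of 0.0678, and HNRNPC one of 0.19 with a limma adjusted p of 0.543.

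ENZ was used at 20 µM and its values are set beside the others without a comparison. No member passed the 2-fold rule, and at 1.5-fold 4 of 44 were lower, SF3B1, HNRNPR, TRA2B and TRA2A, where 12.4% of all genes were. HNRNPUL1 was the highest member, at 51.5 FPKM in the vehicle and 66.2 with ENZ, a change of 0.36. All 13 SR proteins and TRA2 genes were below their vehicle with ENZ, between -0.75 and -0.06, where 10072 of all 19256 tested genes were below theirs. Of the 42 members tested in all 3 experiments, 31 were below their vehicle in each, a number that was not counted over all genes. Added up, the members' levels with compound were 0.636 of those in the vehicle with SR2211, 0.636 with XY011 and 0.808 with ENZ.

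The 3 vehicles show how far members differ between experiments with no compound added, although these tables were normalised separately. The highest vehicle level of a member was a median of 2.227 times its lowest. TRA2B was at 51.4 RPKM, 51.8 FPKM and 326 FPKM in the vehicles of SR2211, XY011 and ENZ, and SF3B1 at 73.5, 74.5 and 327, whereas KHDRBS1 (86.5, 82.9 and 81.8) and HNRNPUL1 (51.9, 54.2 and 51.5) were alike in all 3. Between the SR2211 and XY011 vehicles 4 of 44 members passed the 2-fold rule, where 10.9% of 12478 genes did. They were HNRNPA1, HNRNPH2, HNRNPU-AS1 and the readthrough transcript HNRNPUL2-BSCL2. HNRNPH2 was at 1.68 RPKM and 13.95 FPKM, and the readthrough RPL36A-HNRNPH2, which contains it, at 0.183 RPKM and 28.5 FPKM. HNRNPUL2-BSCL2 was at 0.0304 RPKM in the SR2211 vehicle and at 25.7 and 51.6 FPKM in the others. No member that passed the rule with SR2211 or XY011 was among these 4. The same overlap was not counted over all genes, so this is a description alone.

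By the 2-fold rule, the other 147 genes of the spliceosome and of splicing control, in 7 lists, were lower at shares near or below those of all tested genes. Their medians still lay below those of all genes, at -0.37, -0.28 and -0.125 with SR2211, XY011 and ENZ, beside -0.07, -0.14 and -0.02. Below zero were 110 of 147, 95 of 146 and 95 of 145, beside 6610 of 12142, 7260 of 12582 and 10072 of 19256 genes. With SR2211, 7 of 147 (4.76%) were lower, where 5.76% of all genes were, and 2 were higher, where 5.1% were. A pseudocount of 0.1 gave 12 lower, beside 8.66% of all genes. With XY011, 19 of 146 were lower, where 13.2% of all genes were, and 5 were higher, where 7.57% were. Centring gave 9 higher, beside 10.1%. With ENZ, 3 of 145 (2.07%) were lower, where 4.67% of all genes were, and 1 was higher, where 3.68% were. The U1 snRNP and Sm proteins had the highest share with XY011, 6 of 17, and 2 of 17 with SR2211. Among them SNRPB, an Sm core protein, was lower with both, at -1.01 and -1.15. In the list of U2-associated factors DHX15, a helicase that takes spliceosomes apart, was at -1.40 and -1.46. Of the SR protein kinases and import factors, SRPK1, which phosphorylates SRSF1 in the cytoplasm, was at -1.07 and -1.39. In contrast CLK1, a nuclear SR protein kinase, was at 0.59, 1.89 and -0.68 with SR2211, XY011 and ENZ. Other RNA-binding regulators passing the rule with both included EWSR1 (-1.25 and -1.52) and SYNCRIP, or hnRNP Q (-1.09 and -1.23), which were lower, and MBNL2 (1.37 and 1.64) and ESRP1, an epithelial splicing regulator (1.55 and 2.02), which were higher. The others higher with XY011 were SYF2 and CLK3. The genes past the rule with ENZ, named after their values were seen, were CDC40, PTBP3 and MBNL1, lower, and SMG9, higher. By limma with the pseudocount of 1, 28 of 145 of these genes fell, where 13.6% of all genes did, and 5 rose (ESRP1, MBNL2, CLK1, SYF2 and XAB2), where 9.33% did. With a pseudocount of 0.1 limma called 0 of all 11936 genes as fallen and 0 as risen.

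**Figure D5:**
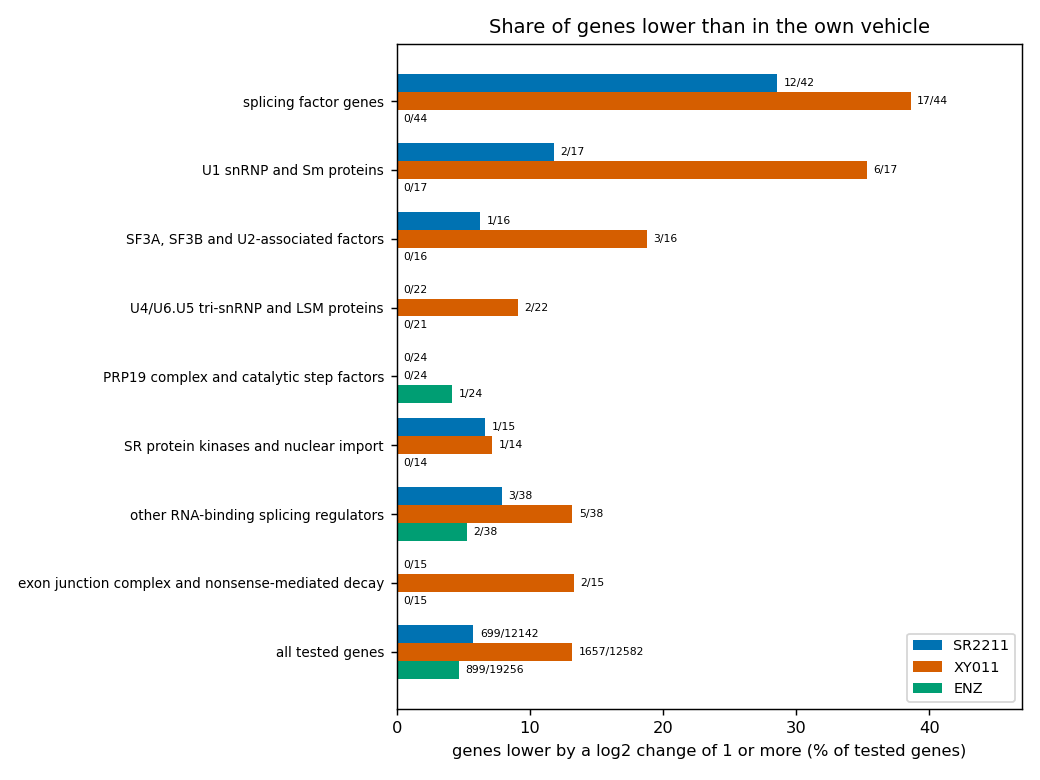
Share of tested genes that were lower than their own vehicle by a log2 change of 1 or more, for the splicing factor genes, 7 lists of other splicing genes and all tested genes, with 1 library per group; labels give genes lower of genes tested. The splicing factor genes stand at 12 of 42 and 17 of 44 with SR2211 and XY011, and the U1 snRNP and Sm proteins at 2 of 17 and 6 of 17.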

How the data were processed

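RNA-seq values of 6 libraries in 3 experiments were used, each with 1 vehicle and 1 treated library of C4-2B cells. The values of the SR2211 pair are RPKM and those of the XY011 and ENZ pairs FPKM, both computed by the authors and deposited per gene. Libraries were poly(A)-selected, per the labels' protocols. Per the submitters' processing notes, BWA, Bowtie, Cufflinks and Cuffdiff were used, with builds named GRCh37 and hg19. The role of each tool, the annotation and the strand setting: not given in the sources used here. The extraction protocols name another code in place of XY011, and SR2211 for the ENZ pair, so groups were taken from titles and agents. A stand-in of 0.01 (SR2211 pair) or 0.001 (XY011 pair) marks genes with no reads.

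Log2 changes used a pseudocount of 1 and genes at 1 or more in either library, without small RNA genes. Whole reads were recovered for the SR2211 pair as the smallest whole numbers that matched the ratio of the values and gave a whole gene length. This succeeded for 43 of 43 members above the stand-in value. Lengths had to be whole within 0.005 base times the multiple, up to a multiple of 12. A tolerance of 0.01 read applied to the 26 microRNA genes that set the range of depths. The limma fit (version 3.58.1, no trend or robust option) used log2(value + 1) with terms for experiment, for both 5 µM compounds together and for ENZ. It had a prior of 5.32 degrees of freedom, with Benjamini-Hochberg adjustment over 11936 genes. The fit and the size rule were tested on simulated data. For the read recovery only the ratio of reads was tested so, with the relative depth given. The depth, the gene length and the read number itself were not. Members and gene lists were chosen with earlier results of these data known. Values are given for members past the size rule, the highest in each role and the 3 that changed least, and for listed genes past it in 2 or more experiments. The values of 1 listed gene are not reported here. Nothing in the labels says that libraries came from separate cultures, and p-values measure only the spread between these samples. Alternatives were another pseudocount, centring, quantile scaling, other filters and a 1.5-fold rule.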

Additional observations from a re-analysis of the deposited data

Results flagged for a closer look

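With 1 library per group no outlier could be sought, and 4 members stood out because their changes went opposite ways in 2 experiments, by at least 0.1 each and 0.5 between them on the log2 scale. These differences were not tested, and ENZ was used at a higher dose than the other compounds. HNRNPC was at 0.44 with XY011 and -0.19 with ENZ, a difference of 0.63. SF3B1 was at 0.11 with XY011 and -0.77 with ENZ, a difference of 0.88. HNRNPUL1 was at 0.36 with ENZ and -0.20 with SR2211, a difference of 0.55. HNRNPUL2 was at 0.12 with ENZ and -0.55 with SR2211, a difference of 0.67.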

How the results depend on the processing

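At a 1.5-fold rule 21 of 42 members were lower with SR2211 (17.2% of all genes), and 4 of 44 with ENZ (12.4%). With a pseudocount of 0.1, limma called 0 members as fallen, and 12 of 147 other splicing genes were lower with SR2211. Centring each pair on its median gene put 9 of 146 other splicing genes higher with XY011. The cause of these differences was not tested. The median gene moved by -0.14 with XY011. Centring changed the split of all XY011 genes from 13.2% lower and 7.57% higher to 9.62% and 10.1%, while 15 of 44 members stayed past the rule as lower and 0 as higher. Centring took TRA2B out of the SR2211 calls (-0.95) and HNRNPA3 (-0.96) and U2AF2 (-0.87) out of those with XY011. Quantile scaling left 8 members lower with SR2211 and 15 with XY011. In the limma fit, 18 of the 19 fallen members remained with quantile scaling (TRA2A was lost) and all 19 with centring, both filters and the trend and robust options. No direction of a called member reversed, but most of these settings could not reverse one. Within a pair a pseudocount, a filter or the 1.5-fold rule keeps the sign of a change. Centring moves it by the median gene, -0.07 with SR2211 and -0.14 with XY011, which is far less than a called change. Every change sets a treated library against the vehicle of its own experiment, and the limma fit has experiment as a term. The labels carry no replicate numbers for a further block, and with 1 library per group none could be left out. Depth limits SRSF12 and HNRNPH2 in the SR2211 pair and is unknown for XY011 and ENZ.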
